A study of Danio rerio with 12 samples.

Results

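Libraries labelled as trunk neural crest cells before migration were described in zebrafish embryos at 16 hours after fertilisation, 4 of the 12 libraries of the series. The 4 libraries are the ones labelled premigratory, numbered as biological replicates 1 to 4. Each was made from 20 cells of embryos with the genotype sox10:H2B-Dendra2 (Tg), in which a sox10 promoter drives a histone fused to Dendra2, a fluorescent protein that changes colour under violet light. The treatment is given as control in all 4 and no other allele or agent is named. Premigratory cells were marked by light within a free-hand region over the dorsal trunk that took in several cells at once, so the marked cells were not chosen singly. The protocol aimed at 8 embryos for each population and 4 replicates, and the labels do not say which embryos went into which library. Each library carries its own batch number, equal to its replicate number, so that batch and library cannot be told apart. RNA was amplified with a low-input full-length chemistry before sequencing. The migratory libraries of the series were not used, so nothing here is a difference between stages.

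The neural crest arises at the border of the neural plate and lies on the dorsal neural tube before its cells leave. A core of transcription factors, among them Sox10, Foxd3, Tfap2a, Snai and Twist proteins, sets its identity and its loss of epithelial contacts. Signals through FGF, BMP, Wnt and Notch act on the early crest, and receptors for endothelin, PDGF and chemokines act in its later paths. In the trunk its cells go on to form pigment cells, sensory and sympathetic neurons and glia. Most members described here were identified by the gene name table used, which often gives zebrafish genes a human-style symbol in capitals.

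A gene identifier was called shared where its deposited normalised count was 100 or more in all 4 libraries. It was called mosaic where it was 100 or more in at least 1 library and under 10 in at least 1 other. Of 25878 identifiers 1034 were shared, which is 4%, and 7085 were mosaic, which is 27.4%. A further 14790 (57.2%) were under 10 in all 4 libraries and are called silent, and the other 2969 fell between these classes. These classes were set by the values themselves, so they are a description and nothing in them was tested. Normalised counts of different genes are not divided by transcript length, so an order by mean is an order on this scale and not an order of molecule numbers. Values of a gene are given below in the order of replicates 1, 2, 3 and 4.

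The 4 libraries differed in the sum of their deposited values and in epidermal content. The sums do not measure sequencing depth, which is not given. The deposited values summed to 21711424, 16158459, 15941792 and 10735983, and 3802, 5121, 2880 and 4152 identifiers reached 100. Markers of epidermis, the skin layer that covers the dorsal trunk, made up 11.4%, 0.118%, 0.212% and 3.96% of these sums. Of the 37 epidermal identifiers on that list, 5 (13.5%) were shared, 21 (56.8%) mosaic and 9 (24.3%) silent, beside 4%, 27.4% and 57.2% of all. The keratin krt4 stood at 983467, 4707, 10187 and 144159, and the junction proteins epcam and cldne at 80972, 0, 83.4 and 12589 and at 75991, 0.990, 0 and 15611. Replicates 1 and 4 were thus rich in epidermal transcripts and replicates 2 and 3 held little. Markers of muscle, paraxial mesoderm, notochord, endoderm, neural tube, blood and placodes had no shared member and made up at most 0.126% of any library. The endothelial list was at 0.219% of replicate 1, mostly SOX7 with 47616, 0, 0 and 6.37, and the pronephros list at 0.138%. The hatching gland list was at 0.424% of replicate 1 and 0.428% of replicate 4, led by agr1 with 68552, 1.93, 0 and 40179. The yolk and liver list had 1 shared member of 25, the apolipoprotein gene apoeb, at 16126, 6082, 7026 and 5791. The pronephros list also had 1 shared member, of 20, and the hatching gland list 1 of 6. In pools of cells, fewer cells of a type and less RNA per cell cannot be told apart. The part of these other cells in the results below was not tested. For the crest list and the transcription factor, receptor, matrix and metabolism groups, shared counts are given also without replicate 1 or without replicates 1 and 4. For most single lists of metabolism and growth they are not given. With only replicates 2 and 3 considered, whatever the values in replicates 1 and 4, 1999 identifiers (7.72%) reached 100 in both. Counts below of list members that reached 100 in replicates 2 and 3 alone are meant in this way. Without replicate 1 there were 1480 shared identifiers (5.72%). Fewer libraries had to pass in both settings, so list counts in these settings are read beside these shares.

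Of the 4 markers by which crest was checked, only SOX10 (ENSDARG00000077467) was present at 100 or more in every library. The transcription factor Sox10 is required for most non-skeletal crest derivatives, and its values were 3769, 9582, 16199.7 and 6676, a mean of 9057 ± 5320.5 (SD, n = 4). Because the cells were chosen by a reporter under a sox10 promoter, this presence is not independent of the selection. The crest-specific transcript crestin was at 5.97, 4299, 4082 and 1788, and TFAP2A, an AP-2 factor of crest induction, at 3.30, 4509.6, 1631 and 687. Both were high in replicates 2, 3 and 4 and nearly absent from replicate 1. FOXD3, a forkhead factor of early crest, was at 2522, 5.80, 1.99 and 2939.9, high in the 2 epidermis-rich libraries and nearly absent from the other two. Replicate 4 thus held all 4 markers at 100 or more, replicates 2 and 3 lacked FOXD3, and replicate 1 lacked crestin and TFAP2A. Replicate 1 held 2 of the 4 markers and is called crest here by its label.

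The crest regulators as a list had 5 of 38 (13.2%) shared identifiers, 20 mosaic, 5 in between and 8 silent, beside 4%, 27.4% and 57.2% of all identifiers for the shared, mosaic and silent classes. Among those with a mean of 1000 or more 5 of 18 (27.8%) were shared, beside 28.8% of all identifiers at that level. The larger shared share of the list was thus not seen at that level. The summed share of the list in each library was 0.161%, 1.18%, 0.978% and 0.723%. The shared ones beside SOX10 were ID1, ID3, inka1a and SOX5. ID1, an inhibitor of basic helix-loop-helix factors and a common target of BMP signals, stood at 11909, 39009, 32771 and 13907. It was highest in replicates 2 and 3. The gene inka1a, an inhibitor of p21-activated kinase, was at 2611, 12738, 40488 and 5306, and ID3 at 3771, 4624, 278 and 1806. SOX5, a SoxD factor, was at 801, 11238, 754 and 277, with replicate 2 far above the other three.

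Many crest regulators had the pattern of crestin, at 100 or more in replicates 2, 3 and 4 and under 10 in replicate 1. This held for 9 of 38 crest identifiers, beside 1.56% of all identifiers. The Twist factor twist1a, of crest migration and skeletal fates, was at 0, 14473, 14508 and 14259. On the deposited scale it was nearly equal in the 3 libraries that held it. Its paralog twist1b was at 1.00, 3341, 2029 and 2362. MYCN, a Myc factor of crest expansion, was at 6.00, 15254, 21161 and 2515, and mych, a Myc gene of fish needed for cranial crest survival, at 1.01, 10105, 4139.8 and 6036. ID2 was at 2.89, 15127, 8876 and 2987 and ETS1, an Ets factor of the crest, at 1.94, 2979, 1235 and 2299.9. The chemokine receptor CXCR4 (ENSDARG00000041959), through which crest cells read Cxcl12, was at 1.00, 17009.6, 2764 and 9512. Its other identifier (ENSDARG00000057633) was at 2627, 1483, 0.974 and 4.91, so the copies were high in different libraries except for replicate 2, which held both. Without replicate 1, 14 crest regulators (36.8%) were at 100 or more in all remaining libraries, beside 5.72% of all identifiers. In replicates 2 and 3 alone 15 (39.5%) were so, beside 7.72%.

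The regulators of epithelial to mesenchymal transition, by which crest cells loosen from the neural tube, were uneven. The zinc finger repressor snai2 was at 3586, 19557, 4.01 and 159, highest in replicate 2 and nearly absent from replicate 3. Its relative snai1b was at 7.09, 0, 13.0 and 1309, high in replicate 4 alone, and snai1a did not reach 10 in any library. SOX9, a SoxE factor of early crest, was at 0.824, 1372, 4.04 and 362 for ENSDARG00000043923 and, for ENSDARG00000003293, at 0, 0, 773 and 0.807. Both SOX8 identifiers and ERBB3, a neuregulin receptor of crest and glia, stayed under 100 throughout. TFAP2B, TFAP2E, ZEB2, twist2, twist3, id2b and erbb3b were silent. The second Zeb2 gene, zeb2a, was mosaic at 763, 19.3, 1.05 and 27.6, high in replicate 1 alone. TFAP2C, an AP-2 factor also of epidermis, was in between at 2573, 132, 421 and 33.2, highest in replicate 1. Among the mosaic regulators not yet given, LMO4 was at 0.998, 2735, 0.985 and 0 and lmo4a at 0, 1342, 0 and 13.5, both LIM-only proteins and both high in replicate 2 alone. The tetraspanin gene tspan36 was at 3.95, 23.9, 3463 and 1235, inka1b at 0, 0.949, 273 and 1066, and rxrgb did not reach 100. Of the pigment, neuron and glia genes of later fates 0 of 46 were shared, beside 4% of all identifiers. Of the rest 5 (10.9%) were mosaic and 33 (71.7%) silent, beside 27.4% and 57.2% of all. Of the 46 identifiers 2 (4.35%) reached 100 in replicates 2 and 3 alone, beside 7.72% of all. The mosaic ones included ELAVL3, an RNA-binding protein of neurons, at 3.25, 634, 7726 and 4.66, and mbpb, trpm1b and egr2a.

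**Figure D1:**
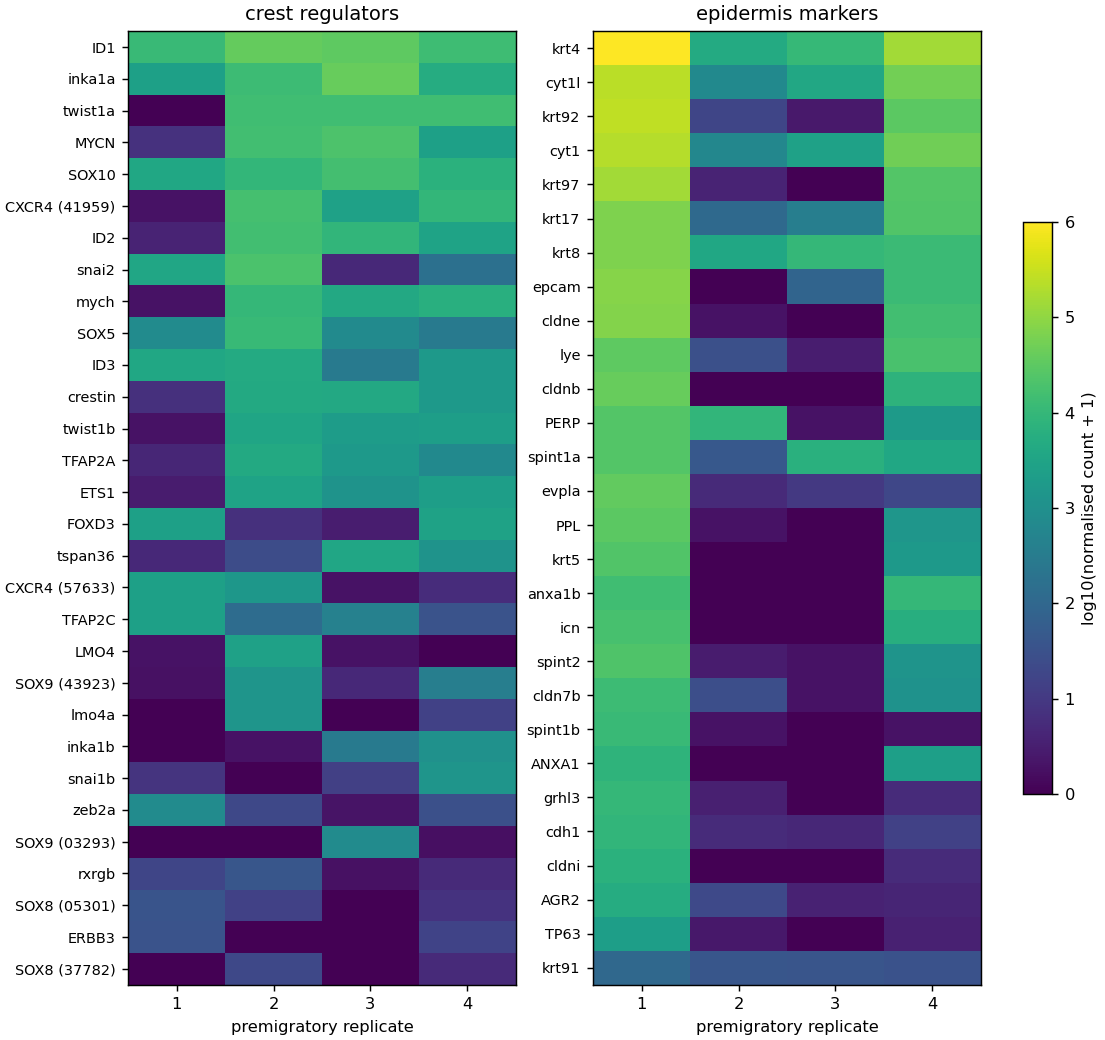
Heat map of normalised counts as log10(value + 1) for the 30 crest regulators (left) and 28 epidermis markers (right) that reached 10 in at least 1 library, each sorted by its mean; columns are premigratory replicates 1 to 4, and digits in brackets are the last 5 of the Ensembl identifier where a symbol occurs more than once. Twist1a, MYCN, crestin and TFAP2A are dark in replicate 1 and bright in the others, FOXD3 is bright in replicates 1 and 4, and most epidermis markers are bright in replicates 1 and 4.

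Of the regulators that set the neural plate border before the crest 0 of 29 were shared, beside 4% of all identifiers. A list of 29 is too short to set 0 apart from that share. Mosaic members numbered 11 (37.9%), beside 27.4% of all. DLX3 was at 8236, 4123, 2477 and 1.96 and DLX5 at 9244, 2118, 2515 and 0, homeodomain factors of the border and of non-neural ectoderm, high in replicates 1, 2 and 3 and nearly absent from replicate 4. The Msx gene msx1b, a BMP target at the border, was at 4918, 3.85, 1.98 and 1302, high in the 2 epidermis-rich libraries. Of the 29 border identifiers 2 (6.90%) reached 100 in replicates 2 and 3 alone, beside 7.72% of all. Without replicate 4 there were 2 shared, beside 1213 of all 25878 identifiers. DLX2, a Dlx factor of the cranial crest, was at 0.997, 27153, 20449 and 10753 and had the highest mean among genes lacking in replicate 1 alone.

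The shared set held 1034 identifiers, of which 1022 had a symbol and 737 were at 1000 or more in all 4 libraries. Their mean had a median of 4415 over the set. The median ratio of the highest to the lowest of the 4 values was 3.80 and the median coefficient of variation 55.0%, so the typical shared gene varied severalfold between libraries. The ratio was under 2 for 143 shared genes and 10 or more for 159. The shared genes made up 39.7%, 46.7%, 60.0% and 54.4% of the library sums, and the mosaic genes 56.5%, 49.8%, 36.6% and 42.8%. On the deposited scale replicate 4, with the lowest sum, was the lowest library for 422 shared genes and replicate 3 the highest for 455. On log2(value + 1), pairs of libraries correlated across genes with Pearson's r of 0.403 to 0.518 and Spearman's rho of 0.372 to 0.476, as a description of genes that are not independent. Over the 7538 identifiers with a mean of 100 or more, r was lower, from -0.0442 between replicates 1 and 2 to 0.281 between replicates 3 and 4. Such a mean can come from 1 library alone, so part of this drop follows from the choice of identifiers. Within the shared set, itself chosen by its values, r was 0.514 to 0.683.

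**Figure D2:**
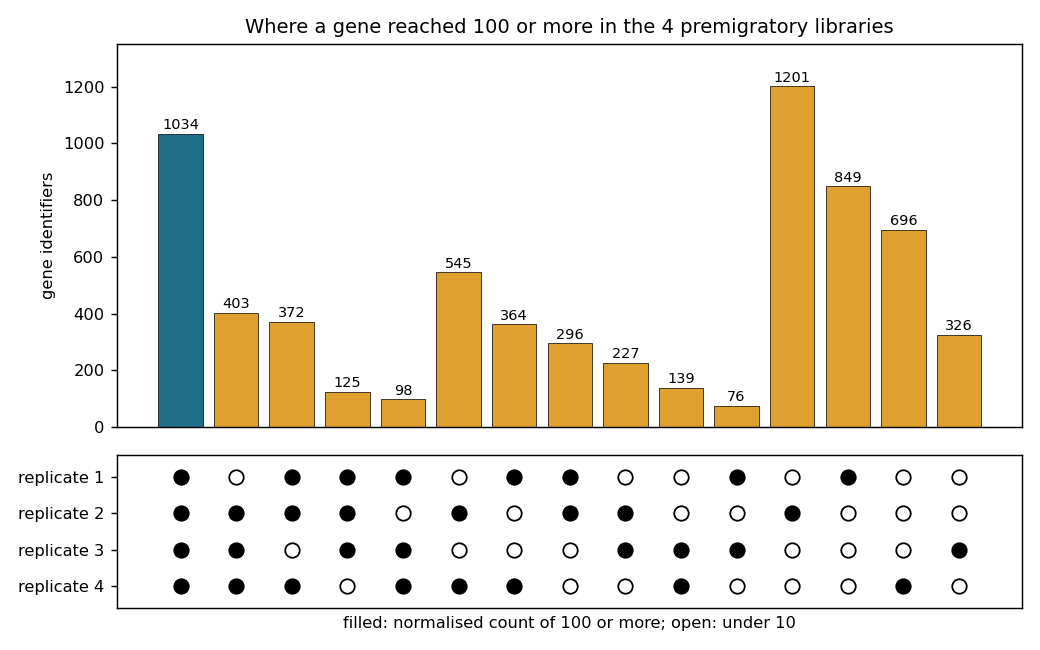
Number of gene identifiers (bars) at 100 or more in each combination of premigratory libraries and under 10 in the rest; a filled dot marks a library at 100 or more and an open dot one under 10. The 1034 shared identifiers are in blue, and the tallest mosaic bar is 1201 identifiers present in replicate 2 alone.

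The mosaic class depended strongly on the level. Among identifiers with a mean of 100 to 1000, 1.17% were shared and 95.8% of 4117 mosaic. Of those with a mean of 1000 to 3000, 12.0% were shared, and of those at 3000 to 10000, 53.2%. At a mean of 10000 or more 83.5% of 236 were shared and 37 remained mosaic. A mosaic gene was thus the usual case at a mean of 100 to 3000 and the less common case above 3000. At a mean of 10 to 100, 42.0% were mosaic and 58.0% in between. A mean of 100 or more can come from 1 library alone, so part of this relation follows from how the classes are defined.

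**Figure D3:**
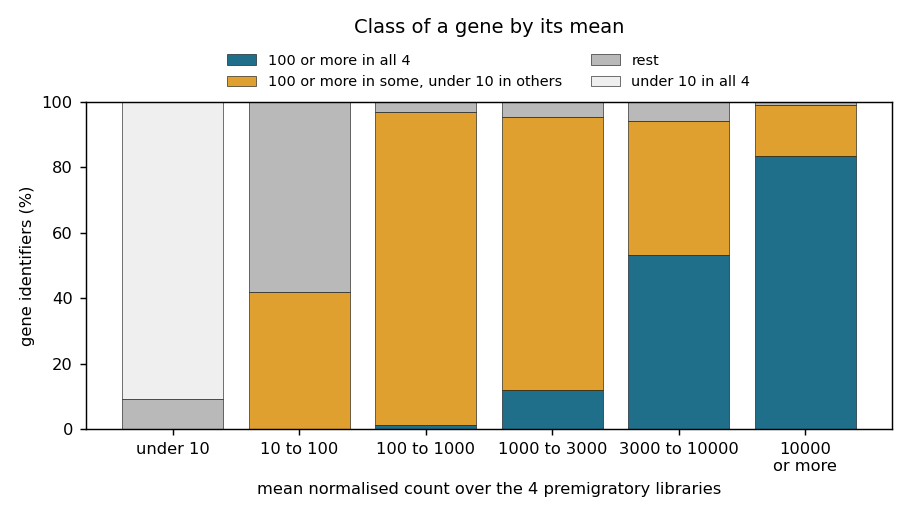
Share of gene identifiers (%) in each class, by the mean normalised count over the 4 premigratory libraries. The shared class grows from 1.17% at a mean of 100 to 1000 to 83.5% at 10000 or more, and mosaic identifiers fall from 95.8% to 15.7%.

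The 25 shared genes with the highest mean fell into a few groups. Mitochondrial messages were among the first, with MT-CO2 at 86311, 83207, 139138 and 162705, MT-CO3 at 62022, 83305, 131319.8 and 132426 and MT-CO1 at 24372, 122958, 149247 and 102802, subunits of cytochrome oxidase, and MT-CYB at 5012, 47687, 58748 and 74765. Chromatin proteins of the high-mobility-group families followed, with HMGB2 at 44815, 80813, 87329 and 71545, hmgn1a, hmga1a and hmgb2b. The histone-binding proteins ptmab and SET (ENSDARG00000031495) belonged there too. Cytoskeletal genes were actb2, tubb2b and marcksl1b, and genes of translation were eef1a1l1, RPL3, RPS2 and RPLP1. The immediate early factor FOS, the RNA-binding protein hnrnpa0l, the calmodulin gene calm3b and an unnamed locus, si:dkey-151g10.6, were also present. The membrane protein gene pmp22a was at 9735, 70356, 74471 and 16732, high in replicates 2 and 3. The keratins krt4, cyt1l and cyt1 completed the 25, and their means came mostly from replicates 1 and 4.

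On the deposited scale the 5 evenest shared genes were atp5if1a, TARDBP, tmsb4x, ATP5PO and CFAP20. Scaling factors by the median of ratios ran from 0.791 for replicate 1 to 1.52 for replicate 2, so evenness depends on the scaling. For these genes it was not checked under other scalings. The inhibitor of mitochondrial ATP synthase atp5if1a was at 2885, 2966, 2953 and 2792, a ratio of 1.06 between the highest and lowest library. TARDBP, an RNA-binding protein, was at 5587, 5661, 5119 and 5166, and tmsb4x, an actin-binding thymosin, at 10018, 11193, 10981 and 10705. At the other end, among the 5 most uneven, krt17 had a ratio of 629, cyt1 of 364, cyt1l of 345, krt4 of 209 and DDX52, an RNA helicase of ribosome assembly, of 149, with values of 5901, 3743, 16949.8 and 114. Keratins were 4 of the 8 shared genes with a ratio of 100 or more. Just inside the limit of 100 were calr3b with a lowest value of 103 and PSMD3 with 107. Just outside were tardbpb at 99.1, zgc:110216 at 97.8 and SSR2 at 95.3.

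Of 599 identifiers in the transcription factor lists 23 (3.84%) were shared and 212 (35.4%) mosaic, beside 4% and 27.4% of all identifiers. Of the 119 with a mean of 1000 or more 23 (19.3%) were shared, beside 28.8% of all identifiers at that level. In replicates 2 and 3 alone 65 of 599 (10.9%) reached 100, beside 7.72% of all. ZBTB16, a zinc finger and BTB factor that holds progenitors undifferentiated in other tissues, was at 9284, 54184, 52007 and 8743, high in all and highest in replicates 2 and 3. Its paralog zbtb16b was at 447, 3753, 3689.6 and 3159. The SoxC factor SOX11, of neural and crest progenitors, had 2 shared identifiers, ENSDARG00000077811 at 2004, 8995, 21626 and 3869 and ENSDARG00000095743 at 501, 6817, 13587 and 3437. All of these 4 identifiers had their lowest value in replicate 1 or 4, the libraries rich in epidermal markers. Replicates 1 and 4 were the lowest library for 286 and 422 of all 1034 shared genes, so this is the usual case for a shared gene. The orphan nuclear receptor nr2f5 was at 2221, 11961, 9250.3 and 3735, and it was the shared member of the nuclear receptors, 1 of 49.

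Over all 4 libraries, immediate early and stress-driven factors were the transcription factor list with the largest shared share. Of their identifiers 8 of 48 (16.7%) were shared and 19 (39.6%) mosaic, beside 4% and 27.4% of all identifiers. FOS was at 56847, 21408, 102721 and 13521, the JUNB identifiers ENSDARG00000104773 and ENSDARG00000074378 at 40609, 19624, 36033 and 983 and at 20440.4, 3907, 11777 and 3187, and JUN at 23500.1, 4108, 19397 and 673. The related early genes ier2a and IER5 were at 18173, 14219.6, 11837 and 768 and at 5049.8, 5449.7, 2341 and 2326. Replicate 4 was the lowest library for all 6 of these identifiers on the deposited scale, for 4 after scaling to the same total and for 5 after scaling by the median of ratios. FOS, JUN, ier2a and the first JUNB identifier kept it under both. Crest regulators had the larger share without replicate 1, 14 of 38 beside 9 of 48, and in replicates 2 and 3 alone, 15 beside 14. XBP1 and atf6, factors of the unfolded protein response, were at 23404, 3748, 627 and 3667 and at 9091, 1077, 148 and 1037. CEBPB, a bZIP factor of epithelia and inflammation, was at 65146, 0, 0.970 and 1.97, in replicate 1 alone, and ATF3, a stress factor, at 3920.2, 13299, 15184 and 3.86, in every library but replicate 4.

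Other shared transcription regulators were few. KLF6, a Krüppel-like factor, was at 11296, 4586, 5158 and 2317 and TFDP1 (ENSDARG00000019293), the partner of E2F, at 3965, 5169, 2292 and 4084. CTNNB1, the transducer of canonical Wnt signals and a junction protein, was at 17688, 23961, 12242 and 6688, and HIF1A, the oxygen-regulated factor, at 2114, 4295, 3112 and 626. Of 48 Hox identifiers 1 (2.08%) was shared and 34 (70.8%) silent, beside 4% and 57.2% of all identifiers. The shared one was hoxa2b, of the hindbrain and its crest, at 786, 1851, 1842 and 2237. HOXB9, of the posterior trunk, was at 3672, 8.03, 5.13 and 6187, in the 2 epidermis-rich libraries only. Among mosaic factors with a high value in 1 library were FOXP4 at 0, 4.69, 11299.9 and 6.02 and klf2b at 17262, 11.1, 4.26 and 14.7, and MEIS1, a Hox cofactor, was at 3099, 10059, 1.79 and 3130.2. Without replicate 1 the Myc, Max and E2f list had 5 shared identifiers of 29 (17.2%), beside 5.72% of all. Over the 4 libraries it had 1 (3.45%), beside 4%. MYCN, mych and MYC, at 2.93, 11428, 8997 and 1996, were among the identifiers lacking in replicate 1 alone.

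**Figure D4:**
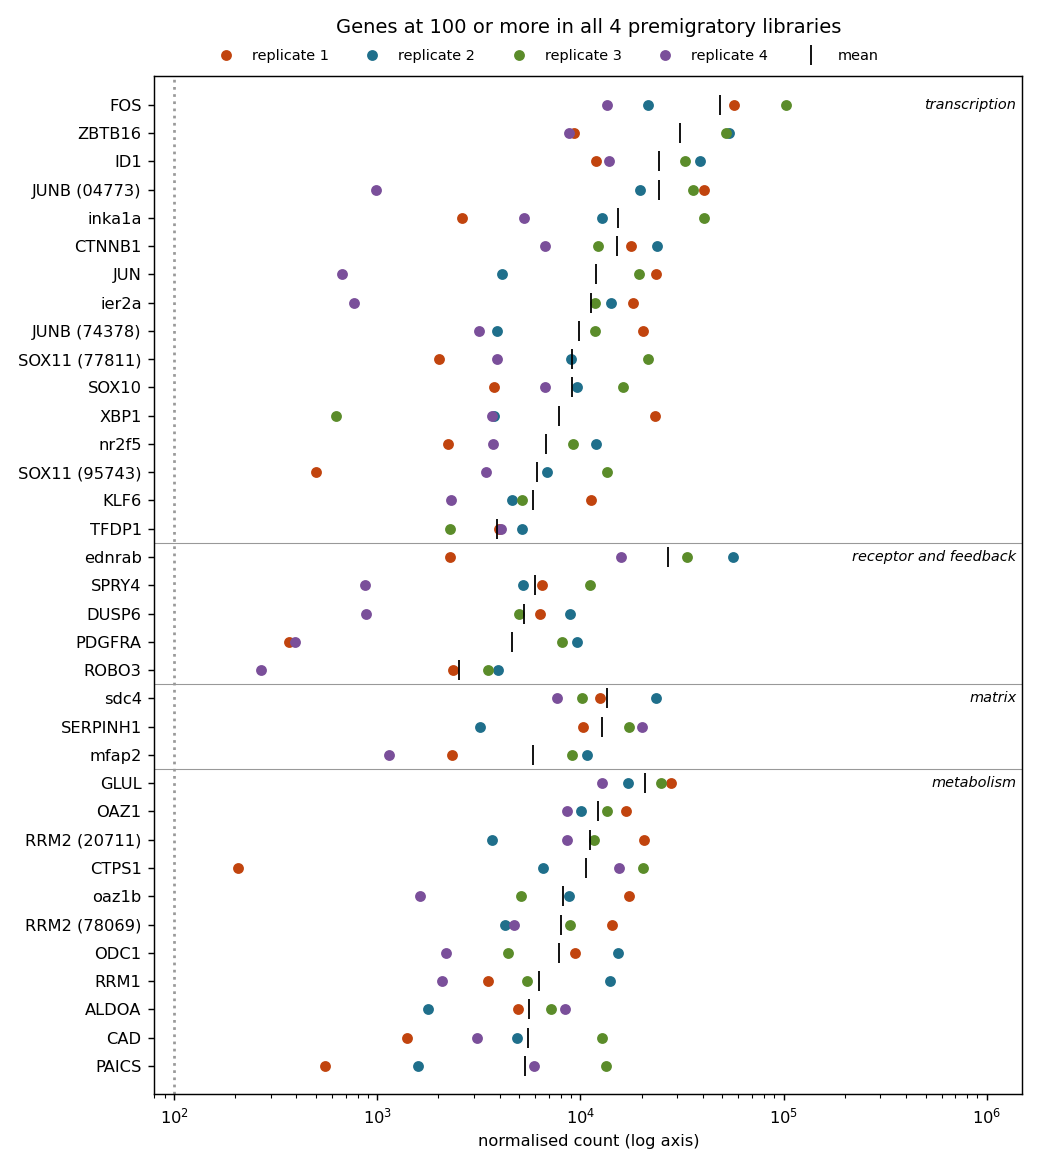
Normalised count (log axis) of shared genes with high means from selected lists of transcription, receptors and feedback, matrix and metabolism in premigratory replicates 1 to 4 (coloured points). The mean is a black tick, the limit of 100 a dotted line, and digits in brackets are the last 5 of the Ensembl identifier. Metabolism is drawn from the glycolysis, citric acid cycle, nucleotide and amino acid lists, without respiratory chain and mitochondrially encoded genes. The transcription rows draw also on the crest regulator list, so that inka1a, a kinase inhibitor, is among them. SOX10 spans 3769 to 16200 and PDGFRA 368 to 9605, and replicate 4 is the lowest point for JUN and ier2a.

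Of 312 receptor and guidance identifiers 5 (1.60%) were shared and 111 (35.6%) mosaic, beside 4% and 27.4% of all identifiers. The lower share of shared ones was not kept in replicates 2 and 3 alone, where 25 (8.01%) reached 100, beside 7.72% of all. The gene ednrab, which encodes an endothelin receptor of the crest, was at 2285, 56706, 33575 and 15832, a mean of 27099.7 ± 23531 (SD, n = 4). Replicate 1 lay well under the others and replicate 2 was the highest. PDGFRA, the receptor of PDGF-A in crest and mesenchyme, was at 368, 9605, 8123 and 396, high in replicates 2 and 3 and low in the epidermis-rich libraries. ROBO3, a receptor of the Slit guidance system, was at 2373, 3951, 3514 and 268. The FGF feedback genes SPRY4, a Sprouty protein, and DUSP6, an ERK phosphatase, were at 6499.9, 5246, 11208 and 871 and at 6315, 8906, 4989.8 and 882. They are targets of FGF and ERK signals, and both were lowest in replicate 4 on the deposited scale. Replicate 4 was the lowest library for 422 (40.8%) of all shared genes, more than any other library.

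FGFR2 and both FGFR1 identifiers, which encode FGF receptors, were mosaic. FGFR2 was at 0, 2171, 5741 and 12.6 and FGFR1 (ENSDARG00000011027) at 4.19, 4333, 0 and 7.67, neither of them at 100 or more in a library rich in epidermal markers. SPRY2, another Sprouty gene, was at 0, 9235, 10431 and 0.924, high in replicates 2 and 3 and near 0 in the other two. In replicates 2 and 3 alone 6 of the 20 FGF identifiers (30%) reached 100, beside 7.72% of all, in place of 2 (10%), beside 4%.

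The lists of BMP and TGF-beta receptors and antagonists, Wnt receptors and polarity, Notch, Eph and ephrin, semaphorin, and Hedgehog, chemokine and lipid receptors had no shared member, 0 of 31, 0 of 47, 0 of 23, 0 of 30, 0 of 45 and 0 of 48. At the 4% of all identifiers, lists of this length hold few shared members, so a single 0 does not set a list apart. In replicates 2 and 3 alone, where 7.72% of all identifiers reached 100, 4 BMP, 4 Wnt, 2 Notch and 3 Hedgehog, chemokine and lipid identifiers did. The Eph and semaphorin lists had 0. Without replicate 1 the Notch list had 1 and the Hedgehog list 2, and without replicate 2 the BMP list had 1. Without replicate 3 the BMP list had 2 and the semaphorin list 1. Without replicate 4 the BMP, Wnt and Hedgehog lists had 1 each. With identifiers of the same symbol summed, the BMP list and the Hedgehog list had 1 each. Their mosaic members ranged from 20 of 31 (64.5%) in the BMP list to 11 of 45 (24.4%) in the semaphorin list, beside 27.4% of all. BAMBI (ENSDARG00000055381), a decoy receptor of BMP signals, was at 2763, 7788, 7545 and 0.981, lacking in replicate 4 alone. TGFBR2, the type II receptor of TGF-beta, was at 0, 1864, 5001 and 1.95. FZD4, a Frizzled receptor of Wnt, was at 4.22, 741, 6800.2 and 11.5, highest in replicate 3, and GPC4, a glypican of planar polarity, at 1.00, 4404, 1411 and 2.89. NOTCH1 was at 0, 9624, 263 and 50.7 and HES4, a Hes repressor, at 1.96, 19251, 1.94 and 3626, each highest in replicate 2.

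The ephrin and semaphorin lists were highest in replicate 2. EFNB2 (ENSDARG00000020164), a membrane-bound ephrin, was at 2502, 12357, 0 and 35.1. The neuropilin NRP2 (ENSDARG00000096546), a semaphorin receptor of trunk crest in mouse, was at 1059.6, 9935, 2.96 and 1925, and SEMA3D, a secreted semaphorin, at 0, 13985, 0 and 113. The semaphorin list summed to 0.00652%, 0.264%, 0.00342% and 0.0368% of the libraries and the Eph list to 0.0351%, 0.211%, 0.0136% and 0.0138%.

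Secreted ligands were the list with the largest silent share among the signalling lists named here, 96 of 120 (80%), beside 57.2% of all identifiers. Shared members numbered 0, beside 4% of all, and mosaic ones 14 (11.7%), beside 27.4%. There were 2 (1.67%) at 100 or more in replicates 2 and 3 alone, beside 7.72% of all. The mosaic ones with the highest single values were BMP3 at 11751, 0, 0 and 0 and gdf11 at 0, 10790.5, 0 and 0, each in 1 library, and gdf6a at 7263, 1.92, 0 and 0.970, while pdgfbb stood at 5933 and 9909 in replicates 2 and 3 and under 10 in the other two. The growth factor midkine was not on that list under the symbol MDK. Looked up after the values were seen, its 2 identifiers were shared, ENSDARG00000020708 at 1792, 3213, 9383 and 2071 and ENSDARG00000036036 at 13664, 8907, 7635 and 2106.

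Of 270 matrix identifiers 3 (1.11%) were shared, beside 4% of all identifiers. Mosaic ones numbered 70 (25.9%) and silent ones 155 (57.4%), near the 27.4% and 57.2% of all. In replicates 2 and 3 alone 15 (5.56%) reached 100, beside 7.72% of all. The heparan sulfate proteoglycan sdc4, a syndecan needed for directed crest migration in zebrafish, was at 12439.9, 23507, 10194 and 7706, a mean of 13462 ± 6970.2 (SD, n = 4). Its highest library was replicate 2. The microfibril protein gene mfap2 was at 2348, 10744, 9125 and 1147, high in replicates 2 and 3. SERPINH1 (ENSDARG00000019949), the collagen chaperone Hsp47, was at 10273, 3193, 17268 and 20112, and its other identifier (ENSDARG00000075954) at 9341, 5.33, 4.02 and 1058.

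No collagen was shared over all 4 libraries, beside 4% of all identifiers. In replicates 2 and 3 alone 2 (3.64%) reached 100, beside 7.72% of all. Of 55 collagen identifiers 15 (27.3%) were mosaic and 30 (54.5%) silent, near the 27.4% and 57.2% of all. Only 6 had a mean of 1000 or more. The highest single values were those of col15a1b at 0, 3299.7, 8469 and 309.9 and COL4A4, a chain of basement membrane collagen, at 0, 7804, 0 and 15.0. Laminins, fibronectin and other basement membrane genes had 0 of 33 shared, and 3 (9.09%) in replicates 2 and 3 alone, beside the same shares. LAMB1 (ENSDARG00000101209) was at 5777, 1609, 0 and 10.1 and SPARC at 3426, 1299, 2.94 and 1405. Of the enzymes that process matrix 30 (31.9%) were mosaic and 49 (52.1%) silent, beside 27.4% and 57.2% of all. The collagen crosslinker LOXL2 was at 0, 8282, 21572 and 1243 and the membrane-bound matrix protease MMP14 at 0, 9042, 7837 and 659. In replicates 2 and 3 alone 7 of 94 matrix processing identifiers (7.45%) reached 100, near the 7.72% of all. Over the 4 libraries it was 1 (1.06%), beside 4%.

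The summed junction list was highest in replicate 1, while its shared members were not. Of 132 cadherin, catenin and junction identifiers 3 (2.27%) were shared, beside 4% of all identifiers. They were CTNNB1, CTNND1 and cdh29. CTNND1, the p120 catenin, was at 3326, 1906, 7407 and 146, and cdh29 at 685, 1106, 1656 and 533. The mosaic ones with the highest values were epcam, cldne, cldnb at 40462, 0, 0 and 7558 and alcamb at 35069.9, 2.89, 1.98 and 1053, all highest in replicate 1. Of the junction identifiers 8 (6.06%) reached 100 in replicates 2 and 3 alone, beside 7.72% of all. The junction list made up 1.76%, 0.442%, 0.298% and 0.574% of the libraries. Integrins and focal adhesion genes had 0 of 57 shared and 18 (31.6%) mosaic, beside 4% and 27.4% of all identifiers. In replicates 2 and 3 alone 5 (8.77%) reached 100, beside 7.72% of all. ITGA5, the alpha chain of the fibronectin receptor, was at 9.04, 10918, 2.61 and 16.0. PARVA, an actin linker at adhesions, was at 3764, 4296, 9716 and 1.94. Actin and myosin genes were shared far more often, 23 of 70 (32.9%), with actb2 at 99789, 54568, 76810.2 and 41341. FSCN1 (ENSDARG00000059680), the bundler of filopodial actin and known in crest migration, was at 10607, 20175, 19676 and 3318, and the profilin PFN2 at 7419, 20639, 19932 and 2677.

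Metabolic genes were shared more often than the transcription factor, receptor and matrix groups, with 104 of 329 identifiers (31.6%) beside 4% of all. Respiration carried most of this. At a mean of 1000 or more 99 of 159 metabolic identifiers (62.3%) were shared, beside 28.8% of all at that level. In replicates 2 and 3 alone 123 of 329 (37.4%) reached 100, beside 7.72% of all. Nuclear-encoded subunits of the respiratory chain had 68 of 100 shared and mitochondrially encoded genes 12 of 13, with mt-atp8 the exception at 0, 866, 1010.2 and 649. ATP5F1B, the beta subunit of ATP synthase, was at 19593, 20649, 14287 and 11951, and COX7C, of cytochrome oxidase, at 9738, 15772, 18363 and 6650.3. The mitochondrial messages as a list made up 0.884%, 2.28%, 3.53% and 4.71% of the libraries and the nuclear-encoded subunits 1.66%, 2.08%, 2.51% and 2.43%. By share, replicate 1 was the lowest library for each. The nuclear-encoded subunits summed to 360113, 336175, 399720 and 261001 on the deposited scale, where replicate 4 was the lowest.

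Glycolysis had 3 of 57 shared (5.26%) and 35 silent identifiers (61.4%), near the 4% and 57.2% of all identifiers. ALDOA (ENSDARG00000011665), an aldolase, was at 4938, 1782, 7208 and 8418, LDHB, a lactate dehydrogenase, at 3410.2, 3240.2, 9324 and 1396 and ENO3, an enolase, at 207, 368, 2799 and 212. Of the citric acid cycle 5 of 29 (17.2%) were shared and 17 (58.6%) mosaic, beside 4% and 27.4% of all. At a mean of 1000 or more 3 of 15 identifiers of the cycle (20%) were shared, beside 28.8% of all at that level. Its members at 100 or more numbered 19, 17, 8 and 17 in replicates 1 to 4. Without replicate 3 the shared ones were 11 (37.9%), beside 5.58% of all identifiers. CS, citrate synthase, was at 9429, 3983, 4435 and 2107, while MDH2, malate dehydrogenase, lacked only replicate 3, at 9368, 4912, 0.998 and 1235. TALDO1, at 2348, 1760.1, 5890.3 and 3393, was the shared one of 7 pentose phosphate identifiers. Cholesterol and lipid synthesis had 0 of 38 shared, beside 4% of all identifiers, and 15 mosaic (39.5%), beside 27.4%.

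Nucleotide synthesis was shared in 10 of 45 (22.2%), beside 4% of all identifiers. RRM1 and RRM2 encode ribonucleotide reductase, which makes the precursors of DNA. RRM1 was at 3517, 13917, 5455 and 2083, and the RRM2 identifiers ENSDARG00000020711 and ENSDARG00000078069 at 20461, 3676, 11671 and 8616 and at 14290.1, 4266, 8844 and 4722. CTPS1, of CTP synthesis, was at 207, 6542, 20264 and 15430.1, lowest in replicate 1 by far, CAD, of pyrimidine synthesis, at 1394, 4854, 12852 and 3090.3 and PAICS, of purine synthesis, at 556, 1597, 13317 and 5942. Of amino acid and polyamine genes 5 of 40 (12.5%) were shared, beside the same 4%. At a mean of 1000 or more it was 5 of 20 (25%), beside 28.8% of all at that level. For nucleotide synthesis it was 10 of 23 (43.5%). GLUL (ENSDARG00000100003), glutamine synthetase, was at 27962, 17068, 24933 and 12842, within a ratio of 2.18 on the deposited scale. ODC1, the first enzyme of polyamine synthesis, was at 9392, 15292, 4424 and 2172 and SRM, spermidine synthase, at 159, 5811, 6714 and 1838. The redox protein thioredoxin, TXN, was at 29197, 28388, 34526 and 26268, and it too was even across libraries on that scale.

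The machinery of growth supplied many other shared genes, in counts to be read beside the 4% of all identifiers. Cytosolic ribosomal proteins had 82 of 86 (95.3%) shared, with RPL22L1 at 0, 839.9, 6173 and 3355 and faub at 1504, 9.60, 2466 and 229 the mosaic ones. They made up 3.65%, 5.43%, 8.48% and 7.79% of the libraries. The nucleolar list was split, 19 of 40 shared and 21 mosaic, with npm1a at 22276, 45957, 38464 and 25075 and FBL, of ribosomal RNA modification, at 13263, 20345, 25759 and 23198. Splicing and RNA-binding proteins had 47 of 88 shared, translation factors 31 of 84, the proteasome 28 of 47 and chaperones 33 of 93. Of histones and high-mobility-group proteins 27 of 36 were shared. Chromatin modifiers had 12 of 56 shared, among them HDAC1 at 10134, 26343, 22596 and 8356 and KDM1A, a histone demethylase, at 1686, 12528, 8388 and 1242. CHD7, the remodeler mutated in CHARGE syndrome and known for its role in crest, was at 12.0, 20374, 9104 and 3.15, high in replicates 2 and 3 only.

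Transcripts of dividing cells were found in every library. Of the S phase genes 11 of 41 (26.8%) were shared and 21 (51.2%) mosaic, beside 4% and 27.4% of all identifiers. PCNA, the sliding clamp of DNA replication, was at 4512, 21050.3, 23754 and 8296. The helicase subunit MCM2 was at 7768, 14508, 17078 and 2144, and MCM3, of the same complex, at 2.98, 21138, 19073 and 4071, lacking in replicate 1 alone. Of the mitosis genes 9 of 48 (18.8%) were shared, beside 4% of all. At a mean of 1000 or more 9 of 29 mitosis identifiers (31.0%) were shared, near the 28.8% of all at that level. For S phase it was 10 of 24 (41.7%). The proliferation marker mki67 was at 4378, 31243, 12613 and 2476 and CDK1, the mitotic kinase, at 5064, 12561, 20705 and 3532. Without replicate 1 the shared counts were 19 (46.3%) for S phase and 16 (33.3%) for mitosis, beside 5.72% of all identifiers. The S phase list made up 0.327%, 1.15%, 0.952% and 0.730% of the libraries and the mitosis list 0.264%, 1.00%, 1.07% and 0.846%, lowest in replicate 1 in each case.

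Of the DNA damage response 2 of 56 (3.57%) were shared, near the 4% of all identifiers. Mosaic members numbered 28 (50%) and silent ones 19 (33.9%), beside 27.4% and 57.2% of all. CCNG1, a p53 target, was at 7507, 7102, 20208 and 3708 and PARP1, a sensor of DNA breaks, at 2787, 2187, 3713 and 213. TP53BP1, a mediator of break repair, was at 5181, 1505, 0 and 367. Of the nuclear envelope and lamina genes 6 of 39 (15.4%) were shared, beside 4% of all identifiers. At a mean of 1000 or more it was 6 of 19 (31.6%), near the 28.8% of all at that level. Among the shared ones were the B-type lamin LMNB2 at 5939, 5647, 5096 and 1054 and BANF1, which binds DNA to the envelope, at 3683, 12829.8, 9712 and 10439. LBR, the lamin B receptor, was at 2.03, 7378, 6216 and 1599.7, lacking in replicate 1 alone. In total 480 shared identifiers were in a list named by function and 554 in none.

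**Figure D5:**
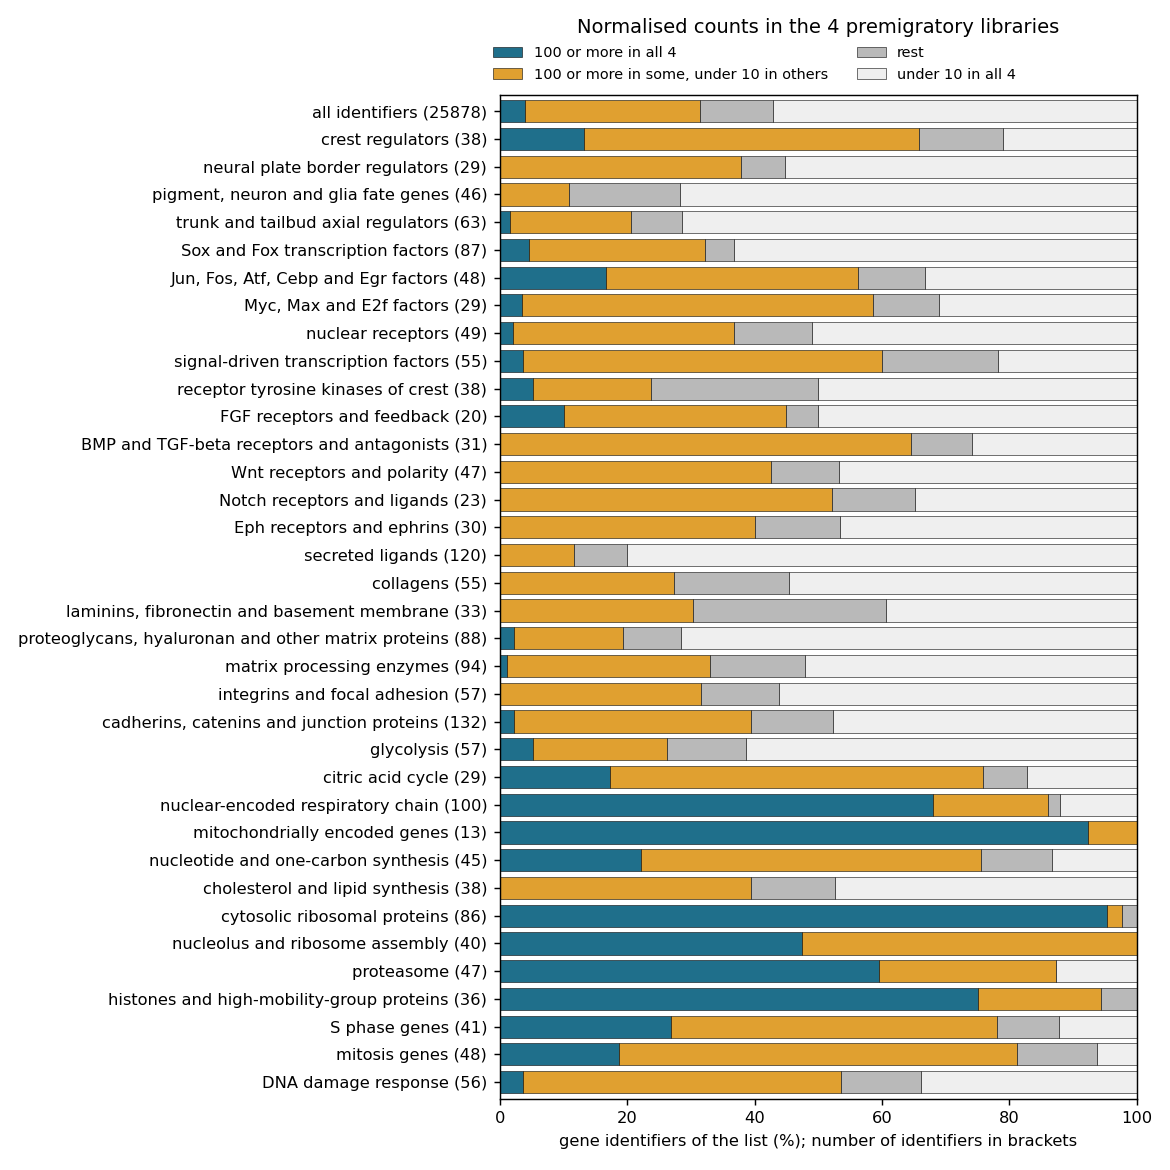
Share (%) of the gene identifiers of each list that were shared (blue), mosaic (orange), in between (grey) or silent (light) in the 4 premigratory libraries, with all 25878 identifiers on top and the number of identifiers of each list in brackets. Ribosomal proteins (95.3%), mitochondrially encoded genes (92.3%) and histones and high-mobility-group proteins (75.0%) have the widest blue bars, and collagens, secreted ligands and the BMP, Wnt, Notch and Eph lists have none.

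The mosaic class was made mostly of genes present in few libraries. Of the 7085 mosaic identifiers 4080 were at 100 or more in 1 library, 2007 in 2 and 998 in 3. Genes present in 1 library and under 10 in the others numbered 849, 1201, 326 and 696. Those of replicate 1 were led by CEBPB, SOX7 and si:ch211-98n17.5. In replicate 2 they were dync1i2a, a dynein chain, FLRT3, a guidance receptor at 0.999, 11247, 3.95 and 3.84, and the ligand gdf11. In replicate 3 they were si:dkey-242k1.6, DCAF10 and FOXP4, and in replicate 4 CTSC, TRAPPC4 and mad1l1, the last a spindle checkpoint gene at 0, 0, 0 and 4054.

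Genes lacking in 1 library and at 100 or more in the other three numbered 403, 98, 372 and 125. For replicate 1 the leading ones were DLX2, MCM3 and twist1a. For replicate 2 they were cdc42l, NET1 and zgc:162730, and for replicate 4 ATF3, GTPBP4 and STX6. For replicate 3 they were krt18a.1 at 436219.8, 3855, 2.39 and 69532, si:ch211-153b23.5 and GMDS.

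Genes at 100 or more in replicates 1 and 4 and under 10 in replicates 2 and 3 numbered 364, which is 1.41% of all identifiers. They were led by krt99 at 350286, 2.62, 1.72 and 64665, anxa1c, krt97, si:ch211-157c3.4, agr1, cldne, TGM1 and mala.2. TGM1 is a transglutaminase of skin. Of the 37 epidermis markers 9 had this pattern, and of the 38 crest regulators 1, FOXD3. The opposite pattern, present in replicates 2 and 3 and under 10 in replicates 1 and 4, held for 227 identifiers. EBF2, a helix-loop-helix factor, was at 1.45, 6124, 16972 and 7.41, ORC3, of the origin recognition complex, at 0, 9871, 19254 and 7.08 and GREB1L at 2.74, 2078, 14757 and 5.27. SPRY2 and the ligand pdgfbb also had it. The genes of these 2 patterns were chosen after their values were seen.

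Paralogs bear on these classes because reads of near-identical copies can be split by the counting. Among 165 pairs with the same base symbol and at least 1 shared member, 31 had both copies shared, 67 a mosaic partner, 46 a silent partner and 21 a partner in between. A shared member was required by the choice of pairs, so these counts do not describe paralogs in general. When identifiers with the same symbol were summed, 1038 were shared.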

How the data were processed

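Low-input RNA sequencing was described in 4 libraries labelled premigratory trunk neural crest, of 20 zebrafish cells each. SMART-Seq v4 amplification and Nextera library preparation are given in the labels' protocols. The submitters' processing notes name fastp 1.0, Salmon and GRCz11. The authors deposited a normalised signal per gene, called normalised counts in the table's name. Its normalisation is not given in the sources used here, low values were not whole multiples of a step, and depth is unknown, so no interval for counting error is given. Reads were amplified and carry no molecular identifiers, so they do not count molecules.

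Groups follow the library names in the labels. With 1 group of 4 replicates, labelled biological, there was no contrast between groups and no p-value. Dixon's criterion was used once, to screen for a library that stands apart. The other 8 columns of the table were not used and 0 columns lacked a sample. Classes used limits of 100 and 10 on the deposited values. Of 25878 identifiers 23604 matched a symbol in the name table and 3608 shared a symbol with another. Of 1561 entries in 64 lists (52 by function, 12 of other cells) 1461 were matched. The pattern for ribosomal proteins was corrected after it had taken in kinases with similar symbols.

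Named genes were the 25 shared genes with the highest mean, per list up to 8 shared members by mean and 4 mosaic members by highest single value, all crest regulators, up to 3 members of each list of other cells, the 5 evenest and 5 most uneven shared genes, the leading 3 present or lacking in 1 library, and up to 3 on each side of the limit. Some results are not reported here. MDK, the genes present in opposite pairs of libraries and the leaving out of replicates 1 and 4 were added after seeing the data. Members, lists and alternatives were chosen with earlier results of these data known. A comparison per coding length was not run, because no lengths were used here. The classification was tested on simulated data. Tables were made in pandas 2.3.3 and numpy 2.4.6 under Python 3.11.15, figures in matplotlib 3.10.9.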

Additional observations from a re-analysis of the deposited data

Results flagged for a closer look

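The screen covered 116 sets of 4 values: measures of each library such as its sum, list shares of the library sums, and single shared genes. Of these, 9 had a library whose gap to the nearest other, divided by the whole range, was above Dixon's critical value at the 95% level. None of the 9 was a library measure. Chance alone gives about 1 set in 20 where the 4 values are independent and normally distributed, and mosaic genes were not screened. These conditions were not checked, and some lists overlap, such as the Hox genes and the axial regulators. The 9 flags therefore cannot be judged against that rate. That rate does not hold for a gene taken for a high mean, since a single high library can raise the mean. The keratin krt4 was among the shared genes with the highest mean, and its mean came mostly from replicate 1. Its flag is thus not independent of its choice. Replicate 1 stood apart upwards for krt4 (ratio 0.858), for cholesterol and lipid synthesis (0.942, shares of 0.166%, 0.0934%, 0.0967% and 0.0976%) and for blood markers (0.851, shares of 0.0959%, 0.000191%, 0.00127% and 0.0145%, led by alas2 at 7487, 0, 2.95 and 4.89). It stood apart downwards for the nucleolus and ribosome assembly list (0.924, shares of 0.623%, 1.66%, 1.69% and 1.61%). Replicate 2 stood apart upwards for the Eph and ephrin list (0.891), for semaphorins, plexins and neuropilins (0.872) and for SOX5 (0.952). Replicate 4 stood apart downwards for BMP and TGF-beta receptors and antagonists (0.981, shares of 0.185%, 0.186%, 0.183% and 0.0426%) and upwards for chaperones and protein folding (0.845, shares of 2.08%, 2.04%, 2.18% and 2.93%), where HSP90AA1 was at 15194, 2575, 0 and 53157. A share depends also on the library sum it is divided by. The chaperone values summed to 451929, 329956, 347425 and 314131, lowest in replicate 4, so that flag holds for the share and not for the sum. The nucleolar values summed to 135156, 267618, 269238 and 172577, lowest in replicate 1 on this scale too. The causes were not tested.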

How the results depend on the processing

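No paired analysis was possible because 1 group was described and no result compares groups. Leaving out each library in turn gave 1158 to 1480 shared identifiers, 5294 to 6022 mosaic, 15240 to 16535 silent and 493 to 568 shared identifiers in function lists, in place of 1034, 7085, 14790 and 480. Without replicates 1 and 4, a setting chosen after seeing the data, 1999 were shared and 3601 mosaic. That set rests on 2 libraries, so fewer libraries had to pass. With a lower limit of 1 in place of 10, the silent class held 6015, since fewer identifiers lie under 1. The mean Pearson's r between libraries was 0.470 over identifiers above 0 in any library and 0.156 over those with a mean of 100 or more. The second choice drops identifiers low in every library and keeps those high in 1 alone. Scaling to the same total or by the median of ratios gave 1037 and 1039 shared identifiers, and upper limits of 50 and 200 gave 1088 and 990. Of the 25 genes with the highest mean 22 stayed under the median and 22 under the geometric mean. Per-list counts moved by over 1.5 times in 15, 1, 11 and 11 of 52 lists without replicates 1, 2, 3 and 4, and in 31 without replicates 1 and 4. A ranking per kilobase of coding length was not run. With 20 cells per library, values under 10 do not show that a gene is absent from the population.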

Other observations

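Shared genes outside every function list included many with high means. Among the 25 with the highest mean these were krt4, cyt1l, cyt1, pmp22a, calm3b and si:dkey-151g10.6. The Ets-family gene FLI1, listed with endothelium and known also in crest, was at 1.59, 6960.5, 4172 and 437, and thus lacking in replicate 1 alone. The muscle-listed genes ACTA1 (ENSDARG00000036371) and MEF2C (ENSDARG00000029764) were at 3.78, 1319, 3739 and 13.9 and at 15.8, 564, 2055 and 12.6, in replicates 2 and 3 only, while MYL1 (ENSDARG00000017441), a fast muscle myosin chain, was at 2512, 0, 0.728 and 1.15, in replicate 1 only. The paraxial mesoderm genes foxc1b and MEOX1 were at 0, 3372, 0 and 3.90 and at 1910.1, 0, 0 and 0.986, each in 1 library. The otic gene oc90 was at 0, 1503, 6484 and 14.2. These values are given with no explanation.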
